A study of Mus musculus with 40 samples.

Results

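The duodenum of mice fed 16000 ppm of Folpet in the diet for 28 days was compared with that of control mice, in 7 and 5 libraries of the 40 in the series. Folpet is a fungicide of the phthalimide class that carries a trichloromethylthio group. The 12 libraries were taken by the treatment given in their labels, with no measured value used, and all probes of the assay were kept. All mice were wildtype males of B6C3F1, a hybrid laboratory strain. RNA came from formalin-fixed, paraffin-embedded sections that were scraped from slides into lysis buffer, and was read with TempO-Seq, an assay that joins neighbouring DNA probes on their target RNA and counts the joined products by sequencing. The group nearest in exposure, 6000 ppm of Folpet for the same time (7 libraries), was used to show where the higher dose differed. Nothing in the labels ties a library to its own mouse. The p-values therefore rest on variation among libraries, part of which may be technical.

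Trichloromethylthio fungicides react with thiols such as glutathione. As background, thiol-reactive compounds release the transcription factor NRF2 from its inhibitor KEAP1, and NRF2 then drives genes that make glutathione, join it to foreign compounds, reduce quinones and peroxides, and supply NADPH. Enterocytes, the absorptive cells of the villus, carry much of this capacity in the small intestine, beside cytochromes P450, conjugating enzymes and efflux pumps that act on compounds from the diet.

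Folpet at 16000 ppm raised genes for glutathione use, quinone, aldehyde and peroxide handling and the supply of NADPH and glucuronic acid, with Cbr3, Gsta2, Gsta1, Ephx1 and Nqo1 among those with rises of over 2 log2 units. Glycolytic genes, a few genes of fatty acid breakdown and the villus factor Klf4 rose as well. The MHC class II genes Cd74 and H2-Aa, complement genes of macrophages and the lymphocyte genes Itgae and Gzma fell. So did smooth muscle and matrix genes such as Flna and Col6a3. Of T and NK cell probes 3 of 13 were called, and of B and plasma cell probes 0 of 8. Of 2541 tested probes 320 passed the test (12.6%), 201 higher (7.91%) and 119 lower (4.68%), in edgeR's quasi-likelihood test with Benjamini-Hochberg adjustment, at a threshold of 0.05 that is used throughout. Counts of called probes in the gene lists below are to be read beside these percentages. The median log2 fold change of all tested probes was -0.05. With DESeq2's size factors in place of edgeR's TMM scaling the split was 167 higher and 151 lower, with library totals alone it was 42 and 15, and DESeq2 itself gave 207 and 186. The groups did not overlap for 147 tested probes (5.79%), 108 with all Folpet libraries higher than all controls (4.25%) and 39 with all lower (1.53%).

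**Figure D1:**
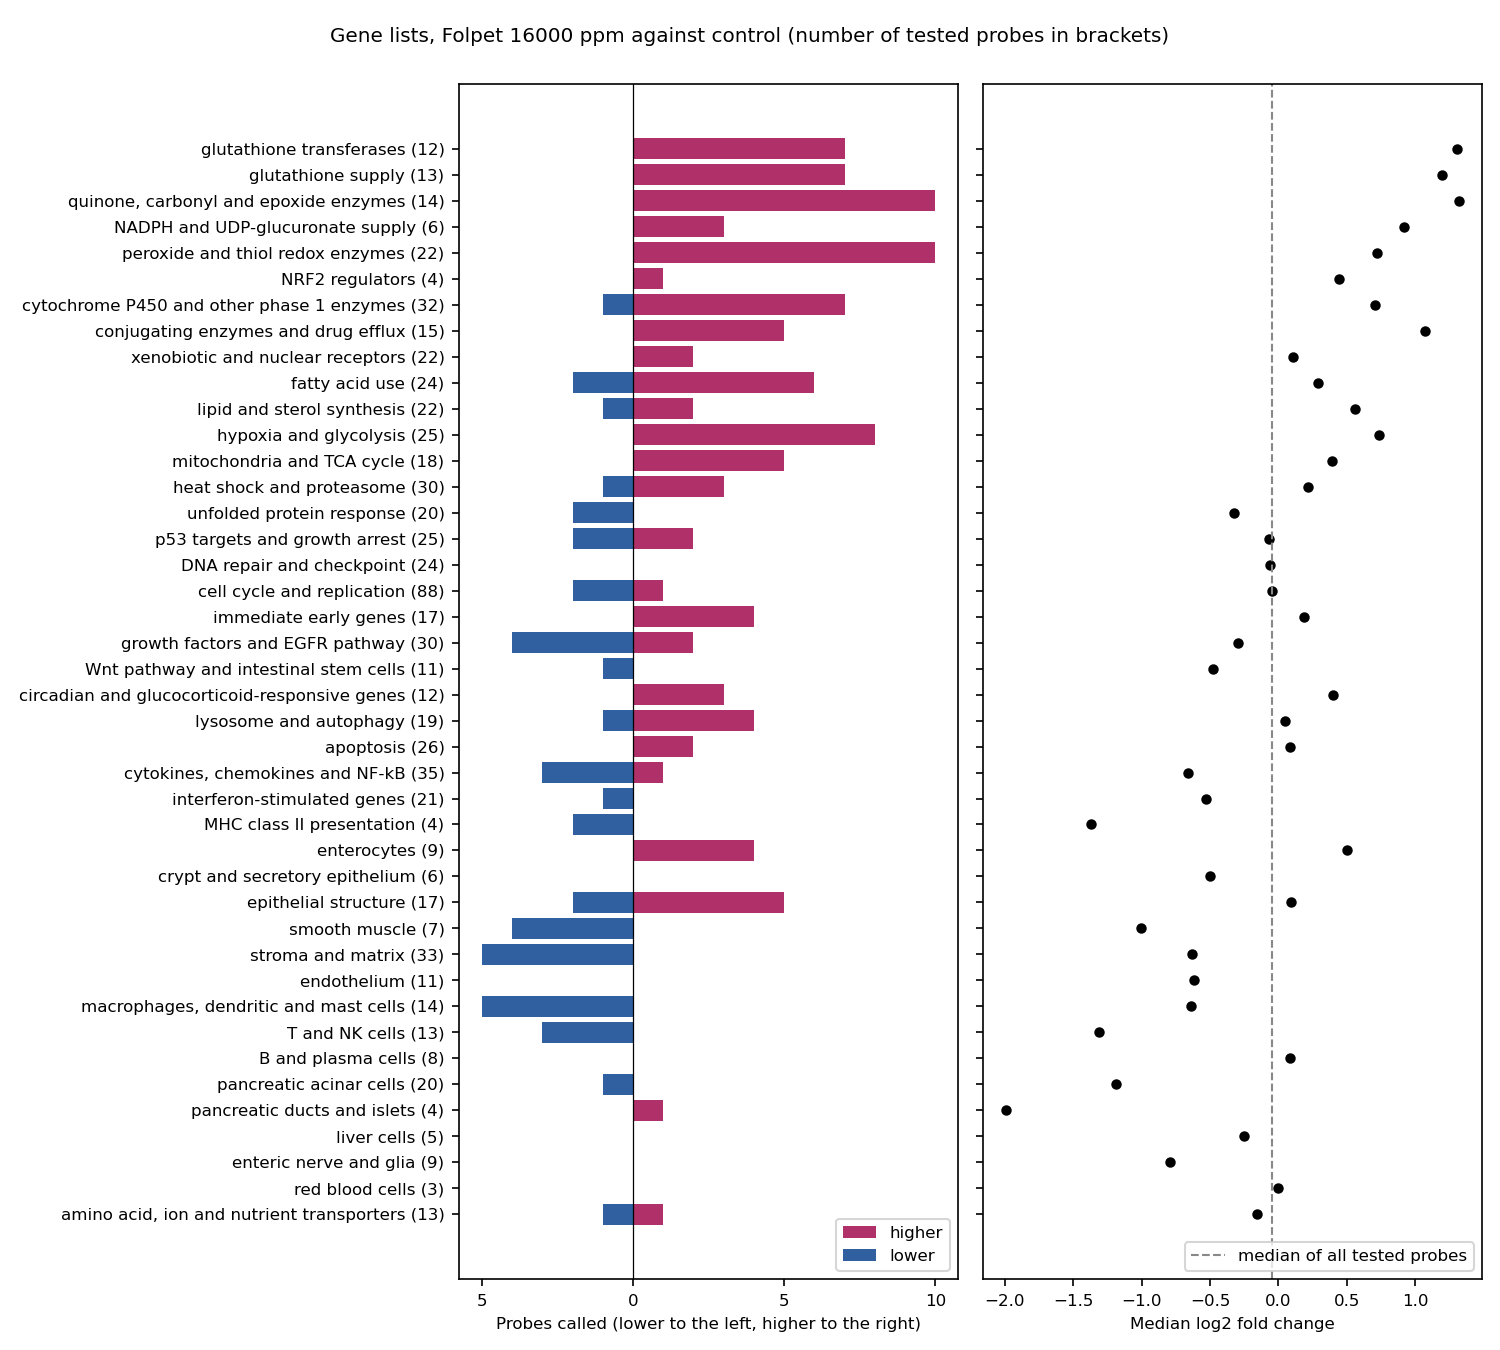
Probes called higher (right) or lower (left) in each gene list after 16000 ppm of Folpet against control, with the number of tested probes in brackets, and, in the panel beside it, the median log2 fold change of each list, with the median of all tested probes (-0.05) as a dashed line. The lists of glutathione, quinone and redox enzymes have medians from 0.72 to 1.32, and the marker lists of smooth muscle, T and NK cells, MHC class II, pancreatic acinar cells (-1.19) and pancreatic ducts and islets (-1.99) lie at or below -1.0. In the fit without libraries over 50% acinar the medians of the 2 pancreatic lists were 0.0005 (acinar) and -0.63 (ducts and islets).

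The count table held 3045 probes for 2756 symbols. Library totals lay between 2121824 and 6220801 counts in control and ranged from 4631632 to 6128206 after 16000 ppm, and 1460 to 2322 and 2121 to 2376 probes were above 0. Digestive enzyme genes and other markers of the acinar pancreas took 42.1, 40.2, 21.8, 66.9 and 79.3% of the counts in control replicates 1 to 5, and 14.7 to 46.0% (median 26.9%) in the Folpet libraries. The difference in means, -23.1 percentage points, gave p = 0.0530 in a 2-sided exact permutation test (n = 5 and 7). Control replicate 5 also had the fewest counts of the 12 libraries, and the main calls lost without single controls, or without control replicates 4 and 5 together, are given beside the genes. The libraries labelled duodenum held enterocyte RNA beside that of the acinar pancreas, and the latter took most counts in control replicates 4 and 5. The markers on the panel do not tell duodenum from other small intestine. The 9 enterocyte probes, among them Fabp1, Fabp2 and Apoa1, summed to between 18290 and 67168 CPM (counts scaled to a common, TMM-adjusted library size, the unit of all levels below) in control and to between 71647 and 95724 CPM after Folpet, and none was at 0 in all 12 libraries. Vil1, Alpi, Lgr5 and Muc2 are not on the panel. In bulk RNA, fewer cells of a type and less RNA per cell cannot be told apart.

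Promoter sequence of the genes that rose was read from the RefSeq promoter table (GRCm38.p6), in which 1743 of the 2328 tested genes had an entry. The core of the antioxidant response element, the NRF2 site, was searched as TGACNNNGC on both strands, from 250 bases before the start to 50 after it. It was found for 27 of 158 genes called higher (17.1%), 13 of 86 called lower (15.1%), 244 of 1499 not called (16.3%) and 12.4% of all 32851 promoters in the table. A gene counted if any of its promoters held the match. The last share counts each promoter singly, so it cannot be set against the shares of genes. Among 31 genes called higher in the lists of glutathione, quinone, NADPH and redox enzymes 9 held it (29.0%): Ugdh, Prdx1, Me1, Sod1, Gclm, Txnrd1, Srxn1, Gsta3 and Blvra. Those 31 were picked as genes that rose. The aryl hydrocarbon receptor core GCGTG was in 51.6% of the 31 and in 54.6% of tested genes, and the cAMP element TGACGTCA in 0 of 31 and in 3.90%. A match is a description of the letters and not a bound site. Bases further from the start were not searched, so a gene without a match here may still hold the site.

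The stretches around the match are shown for genes whose levels are given next, and a stretch with no match for Gsta2 and Cbr3, which had larger rises. They end at or before the base in front of the start, run 5′ to 3′ along the gene, and have the match in capitals. Their positions are chr5:65435868-65436034 (minus strand) for Ugdh, chr3:122245363-122245491 (plus) for Gclm, chr10:82859054-82859182 (plus) for Txnrd1, chr1:21240404-21240532 (plus) for Gsta3, chr9:78347146-78347295 (minus) for Gsta2 and chr16:93683069-93683218 (plus) for Cbr3.
Ugdh: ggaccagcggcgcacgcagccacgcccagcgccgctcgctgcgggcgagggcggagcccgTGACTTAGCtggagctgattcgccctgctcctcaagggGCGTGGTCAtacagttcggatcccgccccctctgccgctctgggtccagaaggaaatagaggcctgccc
Gclm: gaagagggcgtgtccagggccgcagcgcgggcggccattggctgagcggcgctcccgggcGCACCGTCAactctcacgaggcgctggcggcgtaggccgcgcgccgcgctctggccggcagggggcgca
Txnrd1: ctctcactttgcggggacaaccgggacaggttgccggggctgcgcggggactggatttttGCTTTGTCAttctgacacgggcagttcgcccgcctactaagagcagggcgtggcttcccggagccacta
Gsta3: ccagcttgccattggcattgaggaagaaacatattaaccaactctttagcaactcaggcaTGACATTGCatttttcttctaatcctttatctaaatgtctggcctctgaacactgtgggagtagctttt
Gsta2: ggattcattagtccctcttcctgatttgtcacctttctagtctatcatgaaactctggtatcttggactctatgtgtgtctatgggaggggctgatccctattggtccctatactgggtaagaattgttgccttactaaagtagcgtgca
Cbr3: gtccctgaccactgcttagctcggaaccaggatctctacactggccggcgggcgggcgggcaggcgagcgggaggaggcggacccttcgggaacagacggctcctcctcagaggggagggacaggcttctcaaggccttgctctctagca
In Ugdh the first match begins 132 bases before the start and the second, on the opposite strand, 94 bases before it. The match begins 134 bases before the start in Gclm and 92 in Txnrd1, both on the opposite strand, and 121 in Gsta3. Txnrd1 is shown for the second of its starts in the table.

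Glutathione transferases, which attach glutathione to electrophiles, rose: 7 of 12 tested probes were called higher and 0 lower, with a median log2 fold change of 1.30. Gsta2 lay at 388, 104, 188, 243 and 277 CPM in control replicates 1 to 5, and between 2889 and 5694 CPM (median 4579.9) after 16000 ppm. All Folpet libraries were above all controls, and the fold change was 4.27 ± 0.53 log2 (± standard error here and below; adjusted p = 6.17e-07, edgeR). Gsta1 read 5762, 1770.0, 2947, 7507 and 2726 CPM in control and 24862 to 41665 CPM (median 37861) after Folpet, 3.12 ± 0.40 log2 (adjusted p = 6.61e-07, edgeR), also with no overlap. Gm3776 rose by 3.07 ± 0.43 log2. The coding sequences of Gsta1 and Gm3776 are 99.7% identical in the GENCODE transcripts, and those of Gsta1 and Gsta2 97.5%, so the probes may read each other's transcripts and these genes are uncertain as single genes. Gstp1, a pi-class transferase, rose from 6656 ± 2226 CPM (SD, n = 5) to 15248 ± 1911 CPM (n = 7), 1.20 ± 0.20 log2.

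The lower-abundance transferases also moved, with less room above 0. Gsta3, whose coding sequence is 74.2% identical to that of Gsta1, was at 10.8, 0, 0, 3.77 and 0 CPM in control and at 40.6 to 77.4 CPM (median 55.8) after Folpet, 4.19 ± 1.14 log2 (adjusted p = 0.0112, edgeR). Its call was lost without control replicates 4 and 5 together (3.96 log2). Gstm3 and Gstm2, of the mu class, were called at 1.68 and 1.41 log2. Gstm3 lost its call without control replicates 4 and 5 together (1.67), and Gstm2 without control replicates 2, 3 or 4 (1.22 to 1.24). The 5 probes not called were those of Gstt3, Gstz1, Gstm5 and both of Gstm7.

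Genes of glutathione supply and export rose next, 7 of 13 probes higher and 0 lower, median 1.20. Slc7a11, the cystine importer that brings in the limiting amino acid of glutathione, was at 5.20, 25.3, 7.39, 16.8 and 27.0 CPM in control and at 278 to 737 CPM (median 498) after 16000 ppm, 5.0 ± 1.26 log2 (adjusted p = 0.00618, edgeR). The groups were far apart, yet limma-voom did not call it. Gclm, the modifier subunit of glutamate-cysteine ligase, which starts the making of glutathione, read 81.3, 148, 115, 88.4 and 148 CPM in control and 219 to 359.9 CPM (median 298) after Folpet, 1.34 ± 0.26 log2 (adjusted p = 0.000196, edgeR). Its catalytic partner Gclc stood at 13.9, 31.4, 7.39, 7.25 and 0 CPM against 9.36 to 97.8 CPM (median 56.1), with groups that overlapped, 2.19 ± 0.58 log2. Its call was lost without control replicates 4 and 5 together, at 1.67 log2, and in the fit with only the compared groups.

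Gsr, which returns oxidized glutathione to its reduced form, was at 745, 766, 533, 377 and 640.4 CPM in control and at 1917 to 3438 CPM (median 2982) after Folpet. The groups did not overlap, and the rise was 2.22 ± 0.32 log2 (adjusted p = 5.75e-06, edgeR). The efflux pumps Abcc3 and Abcc5, which carry conjugates out of the cell, rose by 1.76 ± 0.27 and 1.20 ± 0.28 log2; the second Abcc5 probe was not called (0.50 log2). Abcc3 in control replicate 5, at 37.8 CPM, was far below the other controls, at 97.6 to 129.9 CPM. Cth, an enzyme that makes cysteine, rose by 0.82 ± 0.17 log2.

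Enzymes that act on quinones, carbonyls and epoxides had 10 of 14 probes higher and 0 lower, median 1.32. Cbr3, a carbonyl reductase, was at 105, 67.2, 123, 192 and 68.5 CPM in control and at 2203 to 4359.7 CPM (median 2912) after 16000 ppm, 4.75 ± 0.67 log2 (adjusted p = 4.57e-06, edgeR). Its lowest Folpet library was over 10 times its highest control. Nqo1, the quinone reductase that is a classic NRF2 target, read 173, 103, 109.6, 225 and 91.0 CPM in control and 585 to 1109 CPM (median 797) after Folpet, 2.56 ± 0.44 log2 (adjusted p = 8.43e-05, edgeR). Ephx1, the microsomal epoxide hydrolase, read 249.7, 203, 159, 462 and 25.2 CPM against 1076 to 2248 CPM (median 1592), 2.87 ± 0.55 log2 (adjusted p = 0.000331, edgeR). None of the 3 genes had overlapping groups, and their calls held in all 22 alternative analyses.

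Aldh3a2, which oxidizes fatty aldehydes, had the smallest adjusted p of all tested probes. It was at 1244, 1122, 1259, 1446 and 1096 CPM in control and at 2891 to 3583 CPM (median 3051) after Folpet, 1.34 ± 0.15 log2 (adjusted p = 9.87e-09, edgeR). The spread within both groups was small beside the difference. A second Aldh3a2 probe with far fewer counts was not called (-0.63 log2). Aldh2, the mitochondrial aldehyde dehydrogenase, rose by 1.17 ± 0.19 log2 and Aldh1a1, which makes retinoic acid, by 1.53 ± 0.42 log2. The remaining calls of the list were Ephx2, Adh5, Akr1b10 and Cbr1, with fold changes from 0.75 to 1.35 log2. Akr1b10 lost its call without control replicates 4 and 5 together (1.16), and Cbr1 without control replicate 1 (1.34).

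**Figure D2:**
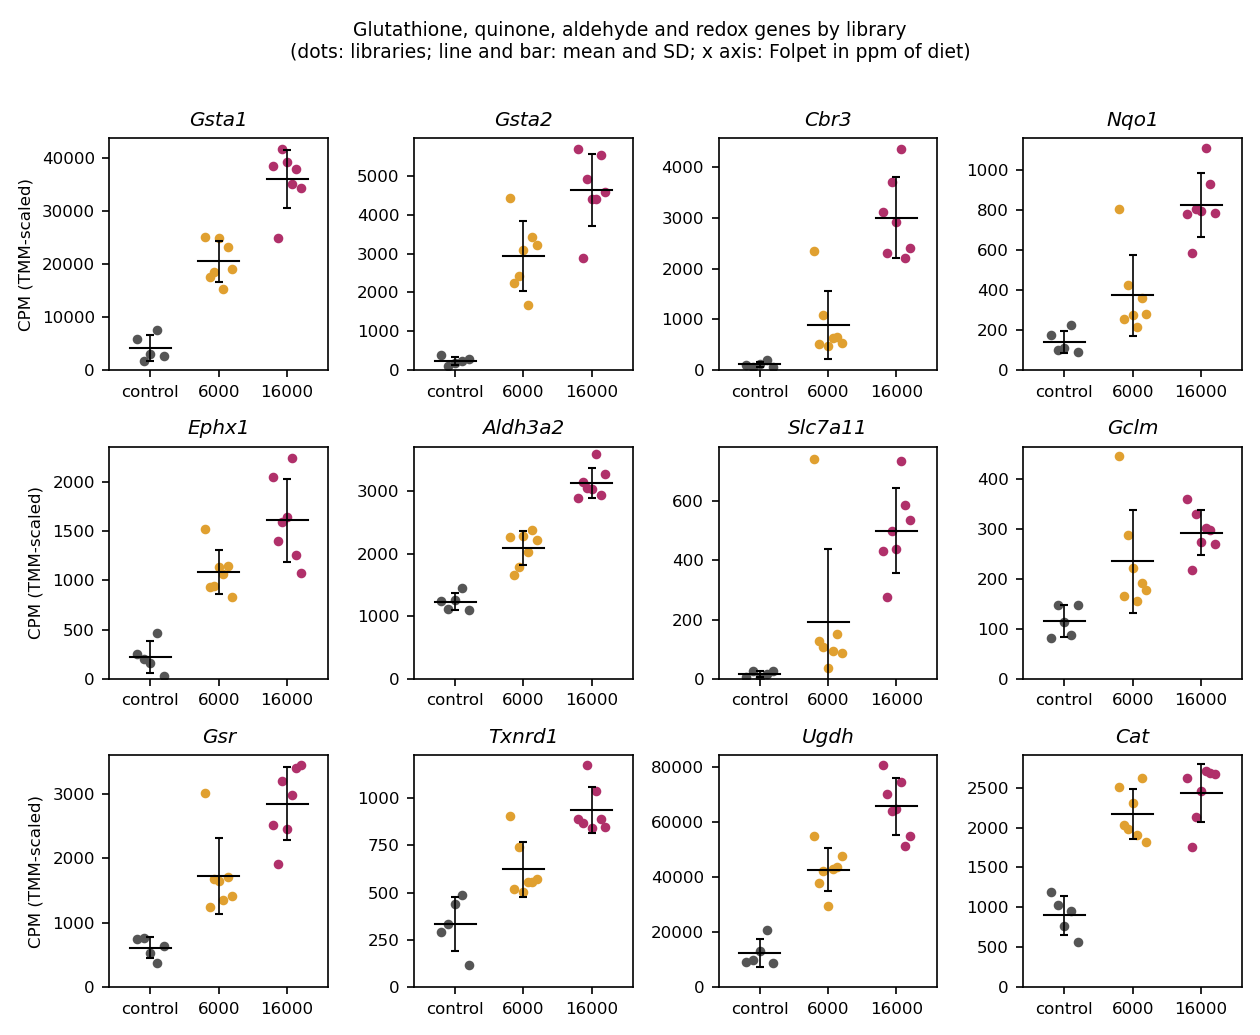
Levels of 12 genes of glutathione, quinone, aldehyde and peroxide handling in CPM (linear axis from 0) in control (5 libraries), 6000 ppm and 16000 ppm of Folpet (7 libraries each); dots are libraries, lines and bars the mean and SD. For Gsta1, Cbr3, Nqo1, Aldh3a2 and Ugdh all libraries of the 16000 ppm group lie above all controls.

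The supply of reducing power and glucuronic acid was higher in 3 of 6 tested probes, and 0 fell. Ugdh, which makes UDP-glucuronate, the donor for glucuronidation, was at 9061, 10079, 13274, 20869.8 and 9017 CPM in control and at 51366 to 80631 CPM (median 64742) after 16000 ppm, 2.40 ± 0.31 log2 (adjusted p = 5.96e-07, edgeR). The groups did not overlap. Taldo1, of the pentose phosphate pathway, rose by 1.58 ± 0.18 log2, from 1006 ± 263 CPM to 3003 ± 271 CPM. Me1, malic enzyme, which makes NADPH in the cytosol, rose by 1.73 ± 0.26 log2. G6pdx, the first enzyme of the pentose phosphate pathway, was at 87.6 ± 34.9 CPM and 105 ± 15.3 CPM and was not called (0.26 log2, adjusted p = 0.64, edgeR).

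Peroxide and thiol redox enzymes had 10 of 22 probes higher and 0 lower, median 0.72. Cat, catalase, was at 1199, 1029, 774, 959 and 564 CPM in control and at 1751 to 2707 CPM (median 2615) after Folpet, 1.42 ± 0.17 log2 (adjusted p = 2.41e-08, edgeR). Txnrd1, thioredoxin reductase, read 293, 336, 439, 488 and 117 CPM against 843 to 1172 CPM (median 889), 1.48 ± 0.29 log2 (adjusted p = 0.000314, edgeR). Prdx1, a peroxiredoxin, read 2802, 2046, 1989.8, 3510.2 and 1356 CPM against 4365 to 6595 CPM (median 5771), 1.29 ± 0.19 log2. These 3 genes had no overlap between the groups. Srxn1, which repairs peroxiredoxins, rose by 1.55 ± 0.32 log2, Osgin1, an oxidative stress response gene, by 1.63 ± 0.27 and Sod1, superoxide dismutase, by 1.02 ± 0.17. The gut glutathione peroxidase Gpx2 was called at 0.83 ± 0.28 and lost its call without control replicates 1, 4 or 5 or Folpet replicates 3 to 7 (0.71 to 0.84).

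Not every gene known as an NRF2 target was called. Hmox1, heme oxygenase, was at 0 in 4 of 5 controls and at 6.80 CPM in the other one, and at 0 to 9.34 CPM (median 4.27) after Folpet, too low for a call. Sqstm1, Mt1 and Mt2 were not called. Among the 4 probes of the regulators only Maff, a small partner of NRF2, was called, rising from 56.8 ± 17.5 CPM to 163 ± 39.8 CPM (1.52 ± 0.27 log2). Nfe2l2, which encodes NRF2, and Keap1 were not called, at 0.56 ± 0.31 and 0.32 ± 0.16 log2 (adjusted p = 0.26 and 0.203, edgeR); NRF2 is regulated mainly at the level of protein, so its transcript is no readout of it.

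Cytochromes P450 and other phase 1 enzymes, which oxidize or hydrolyse foreign compounds, had 7 of 32 probes higher and 1 lower, median 0.70, or 0.46 without the 4 probes of which a group was at 0 throughout. Ces1g, a carboxylesterase, was at 165, 26.4, 72.5, 45.8 and 0 CPM in control and at 992 to 1632 CPM (median 1369.8) after 16000 ppm, 4.41 ± 0.75 log2 (adjusted p = 6.24e-05, edgeR). The call held in all alternatives but limma-voom. Por, the reductase that feeds electrons to the P450s, read 204, 192, 200.2, 115 and 149.5 CPM against 325 to 597 CPM (median 436), 1.39 ± 0.19 log2 (adjusted p = 6.72e-07, edgeR). Fmo5, a flavin monooxygenase, rose by 1.14 ± 0.16 log2, and Maoa, Ces2b and Ces2c were called at 0.94, 0.59 and 0.83. Without control replicates 4 and 5 together these 3 were at 0.60, 0.50 and 0.52 and lost their calls. Ces2b was also lost without control replicate 5 (0.48) or Folpet replicate 1 (0.53), and Ces2c without control replicates 2, 4 or 5 or Folpet replicates 3, 6 or 7 (0.62 to 0.81).

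Single P450 genes were less uniform. Cyp2a5 was at 0 in all 5 controls and at 8.80 to 49.3 CPM (median 24.8) in the Folpet libraries (adjusted p = 0.00134, edgeR), and no fold is given against a group at 0, since any earlier removal of low counts is not stated. Cyp1a1, the standard target of the aryl hydrocarbon receptor, was at 4.05, 0, 34.02, 13.05 and 0 CPM in control and at 47.9, 71.4, 116.0, 487, 115.8, 642 and 705 CPM in Folpet replicates 1 to 7. All Folpet libraries were above all controls, but they spread widely and the gene was not called (4.82 ± 1.91 log2, adjusted p = 0.0974, edgeR). Cyp2b10 and Cyp2c29, targets of the receptor CAR, were not called, at 0.22 ± 0.34 and 1.49 ± 0.89 log2. Cyp3a41a fell by 1.90 ± 0.50 log2, with 1511 CPM in control replicate 1 against 49.9 to 241 CPM in the other controls and 80.7 to 147 CPM after Folpet, and without control replicate 1 it was at -0.47 log2 and lost its call.

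Among nuclear and xenobiotic receptors only Nr1i3, which encodes CAR, was called of 22 probes, by both of its probes. The more abundant one read 447, 175, 375, 349 and 189 CPM in control and 796 to 1033 CPM (median 852) after Folpet, 1.52 ± 0.18 log2 (adjusted p = 2.41e-08, edgeR), and the other rose by 1.20 ± 0.23 log2. Ahr and Nr1i2 (PXR) were not called, at 0.93 ± 0.34 and 0.13 ± 0.19 log2. Of conjugating enzymes and efflux pumps 5 of 15 probes were higher and 0 lower, median 1.07. Abcb1a, the efflux pump P-glycoprotein, read 605, 531, 496, 351 and 186 CPM against 1209.5 to 1496 CPM (median 1245), 1.60 ± 0.25 log2 (adjusted p = 9.34e-06, edgeR), with no overlap. The glucuronosyltransferases Ugt1a6a and Ugt1a7c, which use the product of Ugdh and share exons of 1 locus, rose by 1.07 ± 0.23 and 1.41 ± 0.33 log2. Ugt2b36 was called at 1.99 log2 and lost its call without any 1 of 8 libraries, control replicates 2, 3 and 5 and Folpet replicates 1, 3, 4, 6 and 7, at 1.68 to 2.04 log2.

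Glycolytic and hypoxia-linked genes had 8 of 25 probes higher and 0 lower, median 0.74. Aldoa, a glycolytic aldolase, read 113, 83.1, 207, 214 and 145 CPM in control and 389.7 to 549 CPM (median 444) after Folpet, 1.57 ± 0.21 log2 (adjusted p = 4.59e-07, edgeR). Bnip3, a mitophagy receptor induced in hypoxia, was at 17.5, 12.9, 15.6, 49.6 and 0 CPM against 76.0 to 138 CPM (median 122), 2.47 ± 0.42 log2 (adjusted p = 2.73e-05, edgeR). Pfkl, which commits sugar to glycolysis, read 18.3, 12.4, 38.5, 38.3 and 27.0 CPM against 52.8 to 123 CPM (median 91.8), 1.66 ± 0.34 log2. None of the 3 overlapped between groups. Tpi1 rose by 0.99 ± 0.16 log2, and Gapdh, Slc16a3 and Car9 were called at 0.71 to 1.02. Without control replicates 4 and 5 together these last 3 were at 0.53, 0.79 and 0.87 and lost their calls, as did Slc16a3 without control replicate 4 (0.82). Vegfa, an angiogenic factor induced by hypoxia, and Hif1a, the hypoxia factor itself, were not called, at -0.75 ± 0.26 and 0.45 ± 0.29 log2 (adjusted p = 0.0518 and 0.377, edgeR).

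**Figure D3:**
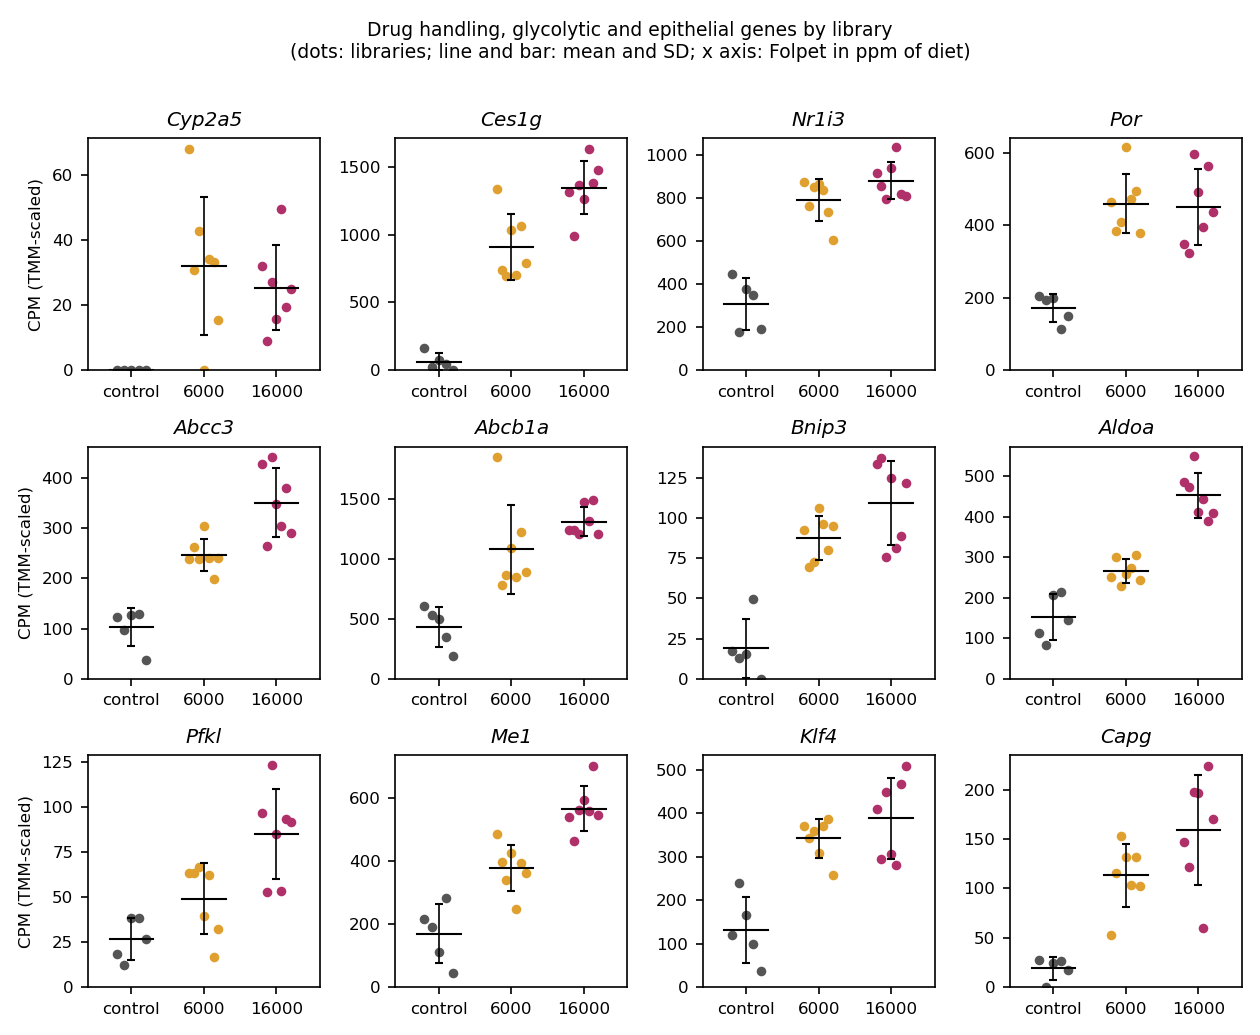
Levels of 12 genes of drug handling, glycolysis, NADPH supply and epithelium in CPM (linear axis from 0) by library in control, 6000 ppm and 16000 ppm of Folpet, with mean and SD. Nr1i3, Por, Aldoa and Klf4 show no overlap between control and 16000 ppm; Cyp2a5 is at 0 in all 5 controls.

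In fatty acid use 6 of 24 probes rose and 2 fell. Creb3l3, a transcription factor of lipid handling in gut and liver, rose from 1874 ± 549 CPM to 3417 ± 370.4 CPM (0.87 ± 0.16 log2), Eci1 by 0.92 ± 0.21, and Fabp2 and Lipa by 0.88 and 0.86, the call of Lipa being lost without control replicates 4 and 5 together (0.84). In lipid and sterol synthesis 2 of 22 rose and 1 fell, 13.6% called beside 12.6% of all tested probes. Acat2, an acetyl-CoA acetyltransferase, rose by 1.15 ± 0.24 log2, with a second probe not called (0.03 log2). Elovl6, a fatty acid elongase, was called at 0.93 and lost its call without control replicates 2 or 5 or Folpet replicate 6 (0.81 to 0.85). Elovl5 was called lower at -0.93 and lost its call without most single libraries. The mitochondrial list had 5 of 18 higher, of which Atp5a1, an ATP synthase subunit, at 0.69 ± 0.16 log2, kept its call without each library in turn; without control replicate 5 the list had 1 call.

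Epithelial genes moved in both directions. Of 9 enterocyte probes 4 rose and 0 fell, median 0.50. Klf4, a transcription factor of differentiated villus cells, read 119, 240.2, 167, 100.3 and 37.8 CPM in control and 281 to 509.6 CPM (median 409) after Folpet, 1.53 ± 0.25 log2 (adjusted p = 1.09e-05, edgeR), without overlap. Apoa1 and Fabp1, a lipoprotein component and a fatty acid carrier, were called at 0.73 ± 0.22 and 0.66 ± 0.20 log2. Without control replicate 5 they were at 0.51 and 0.45 and lost their calls, as did Apoa1 without control replicate 3 (0.69) or Folpet replicate 1 (0.60) and Fabp1 without control replicate 1 (0.61). The enterocyte list then had 2 calls. With acinar share as a covariate 4 enterocyte probes were higher and 0 lower, median 0.41. Without the libraries over 50% acinar 2 were higher and 1 lower, median 0.13. The acinar share of each library is given above, and its part in these results was not tested further.

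Capg, an actin-capping protein, was at 27.9, 0, 24.5, 26.7 and 18.0 CPM in control and at 59.8 to 223 CPM (median 171) after Folpet, 3.03 ± 0.58 log2 (adjusted p = 0.000271, edgeR). The keratins Krt8 and Krt19 rose by 0.87 ± 0.14 and 0.68 log2, and Cdh1, the adhesion protein of all epithelial cells, was not called (0.06 ± 0.12 log2). Krt7, a keratin of ducts, was called lower at -1.70 log2, and lost its call without control replicate 2 (-1.27) or 5 (-1.42). Of 6 probes for crypt and secretory cells edgeR called 0, with 3 at an unadjusted p under 0.05, DESeq2 called 0 and limma-voom 1. Markers of B and plasma cells (8 probes), endothelium (11), enteric nerve and glia (9), liver (5) and red blood cells (3) had 0 calls by edgeR, DESeq2 or limma-voom, and 1, 0, 0, 1 and 0 of them had an unadjusted p under 0.05 in edgeR.

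The antigen presentation genes fell, 2 of 4 probes lower and 0 higher. Cd74, the invariant chain that carries MHC class II molecules to the endosome, read 12868, 25588, 13843, 19248 and 8371 CPM in control and 2016 to 5744 CPM (median 2700.0) after Folpet, -2.28 ± 0.29 log2 (adjusted p = 5.96e-07, edgeR). H2-Aa, a class II alpha chain, read 723, 989.8, 363, 470.3 and 186 CPM against 32.1 to 101 CPM (median 74.1), -3.01 ± 0.43 log2 (adjusted p = 4.18e-06, edgeR). Every Folpet library was below every control for both genes, and both calls held in all 22 alternatives. Ctss, which trims the invariant chain, was not called (-0.45 log2).

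Smooth muscle markers fell in 4 of 7 probes, median -1.0, and none rose. Flna, an actin crosslinker, read 131, 239, 184, 104 and 382 CPM in control and 29.6 to 52.3 CPM (median 46.9) after Folpet, -2.24 ± 0.31 log2 (adjusted p = 5.96e-07, edgeR), with no overlap. Myl9 and Acta2, a myosin light chain and the smooth muscle actin, fell by 1.12 ± 0.23 and 0.98 ± 0.21 log2. Cnn1, calponin, was called at -1.0 ± 0.33 and lost its call without control replicate 3 (-0.65), control replicate 4 (-0.97) or Folpet replicates 3, 4, 5 or 7 (-1.01 to -0.94). Mylk, Actg2 and Tagln were not called. The 7 probes summed to 2032 to 3554 CPM in control and to 1513 to 1805 CPM after Folpet, so the groups did not overlap on the sum.

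Stroma and matrix probes had 5 of 33 lower and 0 higher, median -0.63. Col6a3, a collagen VI chain, read 70.9, 229.7, 163, 203 and 157 CPM in control and 28.9 to 81.1 CPM (median 50.6) after Folpet, -1.70 ± 0.26 log2 (adjusted p = 4.78e-06, edgeR). Control replicate 1 was the only control within the Folpet range. Bgn, biglycan, read 395, 407, 409.6, 501 and 702 CPM against 227 to 327 CPM (median 266), -0.82 ± 0.16 log2 (adjusted p = 0.000143, edgeR), without overlap. Col4a2, of the basement membrane, fell by 0.90 ± 0.19 log2, and Fbn1, fibrillin, by 1.22, a call that was lost without the libraries over 50% acinar (-0.96). Col1a1, the main fibrillar collagen chain, was not called (-0.49 ± 0.21 log2, adjusted p = 0.112, edgeR).

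Myeloid markers fell in 5 of 14 probes, median -0.64. C1qb, a complement component made by macrophages, read 355, 335, 277, 305.6 and 131 CPM in control and 87.2 to 161 CPM (median 127) after Folpet, -1.11 ± 0.19 log2 (adjusted p = 2.94e-05, edgeR), with control replicate 5 inside the Folpet range. C1qc and the Fc receptor Fcgr3 fell by 1.15 ± 0.20 and 1.89 ± 0.46 log2, and C1qa, at -0.87 ± 0.24, lost its call without control replicate 4 (-0.69). Csf1r, the receptor that macrophages need to survive, was at 9.83, 0, 0, 0 and 53.1 CPM in control and at 0 in all Folpet libraries. It was called at an adjusted p of 0.015 (edgeR), and the call was lost without control replicate 5. Cd68, a macrophage lysosomal protein, was not called.

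T and NK cell markers fell in 3 of 13 probes, 2 of them for Itgae, median -1.31. Itgae, the integrin that holds intraepithelial lymphocytes to the epithelium, read 219, 479, 159.6, 216 and 196 CPM in control and 86.2 to 137 CPM (median 109) after Folpet, -1.24 ± 0.24 log2 (adjusted p = 0.000163, edgeR); its second probe fell by 1.32 ± 0.29. Gzma, a granzyme of cytotoxic lymphocytes, read 422, 415, 110.4, 93.1 and 118 CPM against 20.8 to 131 CPM (median 46.6), -2.06 ± 0.50 log2 (adjusted p = 0.00435, edgeR). Control replicates 1 and 2 were high and the other controls lay within the Folpet range. The 13 probes summed to 483 to 1336 CPM in control and to 256 to 320 CPM after Folpet. Cd4, Cd3g and Cd8b1 were not called.

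**Figure D4:**
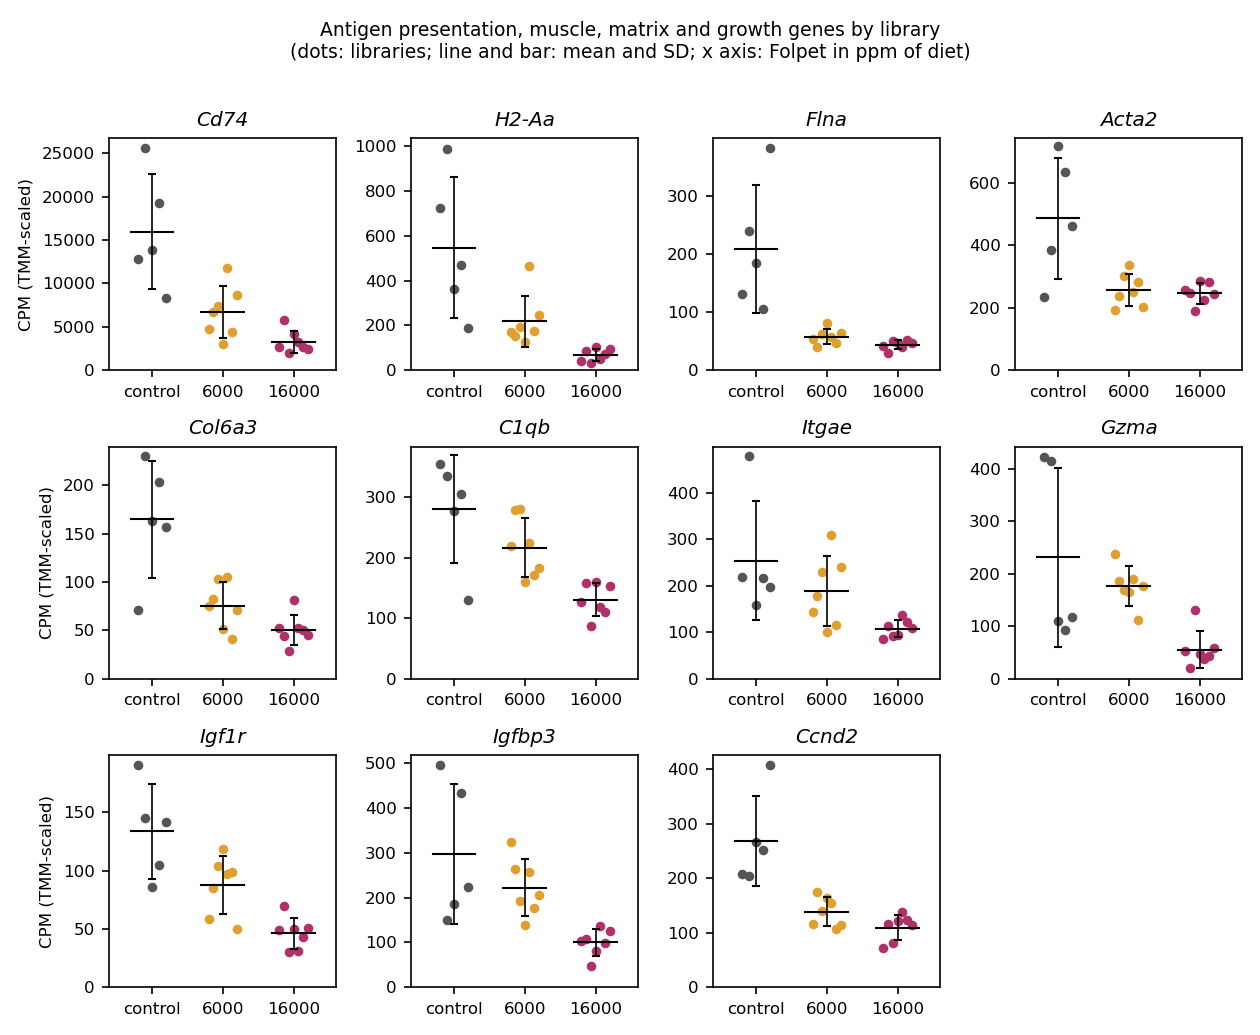
Levels of 11 genes of antigen presentation, muscle, matrix, immune cells and growth in CPM (linear axis from 0) by library in control, 6000 ppm and 16000 ppm of Folpet, with mean and SD. For Cd74, H2-Aa, Flna, Itgae, Igf1r, Igfbp3 and Ccnd2 all libraries of the 16000 ppm group lie below all controls.

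Cytokine and NF-kB genes had 3 of 35 probes lower and 1 higher, median -0.66. That is 11.4% called, near the 12.6% of all tested probes. Il1r1, the interleukin-1 receptor, fell from 133 ± 91.6 CPM to 51.3 ± 14.2 CPM (-1.36 ± 0.31 log2), and Nfkbib, an inhibitor of NF-kB, rose by 0.72. Il18 was called lower at -1.09 and lost its call without control replicates 1 (-0.93) or 5 (-0.91), and Rela, an NF-kB subunit, at -0.86, without control replicates 2 or 3 or Folpet replicates 2 or 5 (-0.81 to -0.75). Tnf was at 4.05, 27.4, 6.22, 4.06 and 21.6 CPM in control and at 0 to 10.6 CPM after Folpet, and was not called. Of 21 interferon-stimulated probes 1 was called, the probe with fewer counts of 2 of Zbp1, a sensor of nucleic acids, lower. That call was lost without control replicates 2 or 5 or Folpet replicates 1 to 6, and Isg15 was not called (-0.53 ± 0.62 log2).

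Growth factor and EGFR pathway genes had 2 of 30 probes higher and 4 lower. Igf1r, the receptor of insulin-like growth factor, read 191, 145, 86.1, 105 and 141 CPM in control and 30.3 to 69.9 CPM (median 49.0) after Folpet, -1.53 ± 0.30 log2 (adjusted p = 0.000217, edgeR). Igfbp3, a binding protein of that factor, read 494, 151, 186, 434 and 224 CPM against 47.7 to 137 CPM (median 103), -1.57 ± 0.30 log2 (adjusted p = 0.000189, edgeR). Neither of these probes overlapped between groups. A second Igfbp3 probe, at 0 in control replicate 5, overlapped and was not called (-1.02 log2, adjusted p = 0.153, edgeR). Dusp6, a phosphatase that limits ERK signalling, rose by 1.30 ± 0.29 log2 and is also among the 17 immediate early probes, of which 4 rose and 0 fell. Fos was called at 0.80 ± 0.23 log2 and lost its call without control replicate 5 (0.70), while Egr1 and Jun were not called. Egfr was not called (0.89 ± 0.97 log2), Erbb2 was called lower at -0.84, and lost its call without control replicate 2 (-0.68).

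Proliferation genes gave few calls: 1 of 88 probes rose and 2 fell, with a median of -0.05, the same as that of all probes. Ccnd2, cyclin D2, read 209, 205, 266, 253 and 409 CPM in control and 72.9 to 138 CPM (median 116) after Folpet, -1.29 ± 0.23 log2 (adjusted p = 5.07e-05, edgeR), without overlap; a second, weaker probe was at -0.88 and was not called. Cdk4 was called at -0.64 log2 and lost its call without control replicate 1 (-0.56) or 5 (-0.47), and its second probe was not called (-0.09). Mki67 stood at 32.5 ± 23.6 CPM and 23.0 ± 8.29 CPM, and Top2a at 175 ± 55.7 CPM and 169 ± 33.2 CPM, and neither was called (-0.51 ± 0.56 and -0.05 ± 0.22 log2), nor were Ccnb1 and Mcm2. These intervals allow changes of moderate size in Mki67 in either direction. Of 24 DNA repair probes edgeR called 0, with 4 at an unadjusted p under 0.05, DESeq2 called 1 and limma-voom 0. Of 25 p53-linked probes 2 rose and 2 fell, 16% called beside 12.6% of all tested probes. Cdkn1a, the p53-responsive inhibitor of cell cycle kinases, was called at 0.57 ± 0.18 log2 and lost its call without control replicates 1, 3 or 4 or Folpet replicates 4 or 7 (0.42 to 0.56). Mdm2 and Gadd45a were not called, at -0.18 ± 0.28 and 0.03 ± 0.20 log2. Hes1, a Notch target of the crypt, fell by 0.67 ± 0.18 log2, the single call among 11 stem cell and Wnt probes.

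Genes of protein folding were mostly not called. Of 20 probes of the unfolded protein response 2 fell and 0 rose, 10% called beside 12.6% of all tested probes. Xbp1 was at -0.77 ± 0.24 log2 and lost its call without control replicate 4 (-0.62), control replicate 5 (-0.55) or Folpet replicate 5 (-0.72). Edem1 was at -1.48 and lost its call without control replicate 5 (-1.18). Ddit3, Hspa5 and Atf4 were not called, at 1.18 ± 0.43, 0.09 ± 0.45 and 0.19 ± 0.19 log2. Of 30 heat shock and proteasome probes 3 rose and 1 fell, 13.3% called. Hspa1b, an inducible HSP70, read 181, 168, 49.8, 62.6 and 255 CPM in control and 469 to 1384 CPM (median 971) after Folpet, 2.71 ± 0.81 log2 (adjusted p = 0.0206, edgeR). The groups did not overlap, yet the call was lost without control replicate 3 (2.51) or 4 (2.52). In clock and glucocorticoid genes 3 of 12 probes rose, with Dbp, a clock output factor, at 1.22 ± 0.31 log2 and Tsc22d3, a glucocorticoid target, at 0.66 ± 0.18. A second Tsc22d3 probe with fewer counts was not called, with groups at the same fitted level.

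The largest falls and some of the largest rises were in genes at the edge of detection. Csf1r, Slc1a2, Col6a1, Cenpi, Klhl13, Ogn, Rps27a and Fgf2 were at 0 in all Folpet libraries and in 3 or 4 of the 5 controls, and no fold is given for them. Cenpi was above 0 only in control replicate 2 (20.3 CPM) and Fgf2 only in control replicate 3 (10.9 CPM), while a second Fgf2 probe was not called. The calls of Csf1r, Slc1a2 and Col6a1 were lost without control replicate 5, that of Cenpi without control replicate 2. Klhl13 lost its call without control replicate 4 or Folpet replicate 4. Ogn and Rps27a lost theirs without control replicates 2, 4 or 5 or any single Folpet library. For Fgf2 the same held without control replicate 3 or any single Folpet library. Rps27a, Ogn and Fgf2 were lost in 17, 15 and 13 of 21 alternatives. G6pc, H2-Aa and Ero1lb were also among the 12 largest falls, at -3.65, -3.01 and -2.60 log2. G6pc lost its call without control replicates 1, 2 or 3 or Folpet replicates 1, 2, 4, 5 or 6 (-3.74 to -3.20). Ero1lb, an oxidase of the endoplasmic reticulum that is rich in the pancreas, was at 763 CPM in control replicate 5 and at 56.2 to 146 CPM in the other controls, and at -1.41 without it the call was lost. Reg1, the 1 called probe of 20 for acinar cells, fell by 1.62 ± 0.49 log2 and lost its call without control replicate 5 (-1.27) or Folpet replicate 6 (-1.51). Among the 12 largest rises, Dppa5a at 4.21 log2 and Acat3 at 2.78 lost their calls without most single libraries.

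The step from 6000 to 16000 ppm was tested to show where the higher dose differed from the lower one. Of 2541 probes 44 passed (1.73%), 15 higher (0.59%) and 29 lower (1.14%). Against control the lower dose called 158 probes (6.22%), higher in 4.6% and lower in 1.61% of those tested; that comparison uses the same 5 controls, so the sets of calls are not compared. Hspa1b showed the largest step among the 44. It was at 25.9 to 120.2 CPM (median 39.7) after 6000 ppm and at 469 to 1384 CPM after 16000 ppm, 4.20 ± 0.75 log2 (adjusted p = 0.0013, edgeR), while the lower dose against control was at -1.48 ± 0.73 and not called. The ranges were far apart, and the step was called in all 23 alternatives.

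Among peroxide and thiol redox enzymes 3 of 22 probes stepped up and 0 down, with a median step of 0.21 log2. Osgin1 was at 142 to 388 CPM (median 217) after 6000 ppm and at 387 to 768 CPM (median 622) after 16000 ppm, 1.46 ± 0.24 log2 (adjusted p = 0.000206, edgeR), and against control it was at 0.17 ± 0.26 with the lower dose. Sod1 stepped up by 0.71 ± 0.15 log2, Prdx1 by 0.65 ± 0.16 and Aldh3a2 by 0.59 ± 0.13, with adjusted p = 0.00635, 0.0248 and 0.00635 (edgeR). Aldoa stepped up by 0.76 ± 0.18, and Tcp1, a subunit of the chaperonin that folds actin and tubulin, by 0.81 ± 0.16. Sqle, an enzyme of cholesterol synthesis, was at 22.9 to 62.5 CPM (median 39.7) and 69.2 to 159.7 CPM (median 75.7), 1.32 ± 0.29 log2, and was not called against control at 16000 ppm (0.61 ± 0.32). Jmjd6 and the prostaglandin receptor Ptger4 stepped up by 0.64 ± 0.14 and 0.62 ± 0.15, and Nup62, a nuclear pore protein, by 0.68 ± 0.17. Nup62 lost its call without 6000 ppm replicates 3, 4, 5 or 7 or 16000 ppm replicate 2, and Ptger4 without 6000 ppm replicate 4 or 16000 ppm replicate 3.

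Of 12 glutathione transferase probes and 13 glutathione supply probes 0 were called in the step. Gsta1, Gsta2, Nqo1, Gclm and Gsr were at 0.81 ± 0.32, 0.66 ± 0.41, 1.14 ± 0.37, 0.31 ± 0.23 and 0.72 ± 0.27 log2, with adjusted p = 0.254, 0.697, 0.136, 0.801 and 0.225 (edgeR). Cbr3 was also not called, with 480.3 to 2339 CPM (median 629) after 6000 ppm against 2203 to 4359.7 CPM, 1.76 ± 0.51 log2 and adjusted p = 0.0726 (edgeR). The standard errors allow steps of a similar size to those called. Por, Fmo5, Maff and Cat had small estimated steps, at -0.03 ± 0.17, -0.06 ± 0.14, -0.01 ± 0.23 and 0.16 ± 0.15 log2, and against control the lower dose stood at 1.41 ± 0.19, 1.20 ± 0.16, 1.53 ± 0.27 and 1.26 ± 0.17.

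Genes lower at 16000 than at 6000 ppm were of several kinds. Erbb3, a receptor of the EGFR family, was at 5054 to 6641 CPM (median 5425) after 6000 ppm and at 2341 to 3338 CPM (median 3057) after 16000 ppm, -0.95 ± 0.15 log2 (adjusted p = 0.000206, edgeR). Its control values were 3652, 4958, 4373, 3713 and 2285 CPM, all below the 6000 ppm group, with control replicate 5 below the 16000 ppm group. Fkbp5, a co-chaperone induced by glucocorticoids, was at 3669 to 5832 CPM (median 4890.0) after 6000 ppm and at 772 to 1903 CPM (median 1244) after 16000 ppm, -1.84 ± 0.35 log2 (adjusted p = 0.00211, edgeR), near the 788 to 1793 CPM of control. Tsc22d3, another glucocorticoid target, was at 1989 to 2525 CPM and 1247 to 1822 CPM, -0.61 ± 0.16 (adjusted p = 0.035, edgeR). Btg2, an antiproliferative gene, stood at 234 to 510.4 CPM and 171 to 277 CPM, -0.87 ± 0.20, with control at 149 to 319 CPM. For Erbb3, Fkbp5, Rapgef2 and Btg2 the lower dose was called higher than control and the higher dose was not called. These genes were picked because they were lower at 16000 than at 6000 ppm, and both doses share the same controls. The calls against control are therefore a description and no separate result.

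Ceacam1, an adhesion molecule of epithelial cells, and Rapgef2, an activator of RAP1, stepped down by 1.32 ± 0.22 and 0.88 ± 0.15 log2, both with adjusted p = 0.000206 (edgeR). Klhl24, Slc27a2, Pdlim1, Prr15l and an uncharacterized RIKEN transcript stepped down by 0.92, 0.70, 1.18, 0.87 and 1.60 log2. Cd74 and H2-Aa also stepped down, by 1.02 ± 0.27 and 1.68 ± 0.39 log2 (adjusted p = 0.035 and 0.0151, edgeR), as did C1qb (0.73 ± 0.18), Itgae (0.80 ± 0.22), Igfbp3 (1.15 ± 0.28), Bgn (0.61 ± 0.14) and Col4a2 (0.66 ± 0.18). The acinar share was 1.80 to 41.2% after 6000 ppm and 14.7 to 46.0% after 16000 ppm. With acinar share as a covariate 44 probes were called in the step, 41 of them also called in the main fit. The part of the acinar share in the step was not tested further.

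**Figure D5:**
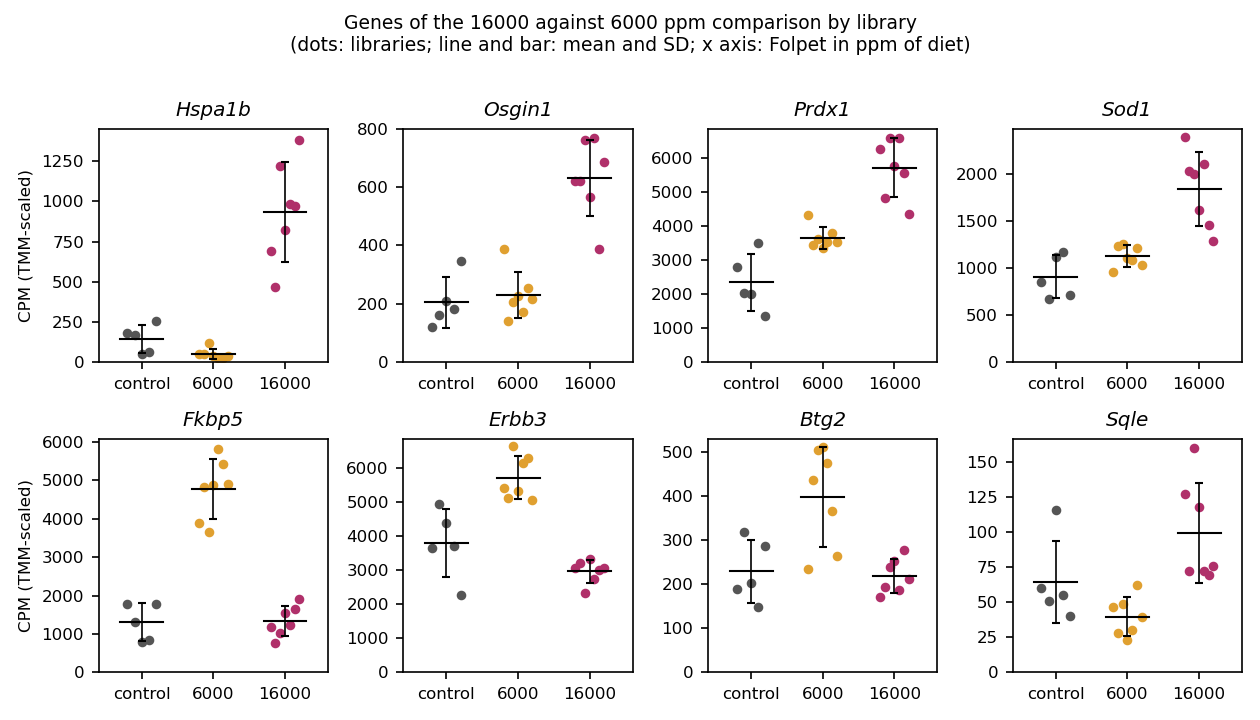
Levels of 8 genes of the comparison between doses in CPM (linear axis from 0) by library in control, 6000 ppm and 16000 ppm of Folpet, with mean and SD. Hspa1b, Osgin1, Sod1 and Prdx1 are higher at 16000 than at 6000 ppm, Fkbp5, Erbb3 and Btg2 are lower, and Sqle is lowest at 6000 ppm.

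Captan, the other trichloromethylthio fungicide in the series, was given at 12000 ppm for the same time (7 libraries), and its values against the same 5 controls are set beside those of Folpet at 16000 ppm without a comparison, since the doses differ. Captan called 6.18% of tested probes against control, 4.64% higher and 1.53% lower. Cbr3 was at 4.40 ± 0.66 log2 with Captan and 4.75 ± 0.67 with Folpet, Gsta2 at 3.67 ± 0.52 and 4.27 ± 0.53, and Nqo1 at 2.23 ± 0.44 and 2.56 ± 0.44. Osgin1 was at 1.28 ± 0.27 and 1.63 ± 0.27, and Cyp2c29 at 5.06 ± 1.06, called, and 1.49 ± 0.89, not called. Cd74 was at -1.74 ± 0.29 and -2.28 ± 0.29. The differences between the fungicides were not tested.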

How the data were processed

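The deposited table holds raw read counts per probe, whole numbers made by the authors for 40 libraries; per the submitters' processing notes bcl2fastq 2.17.1.14, Bowtie and the build mm9 were used, with no roles given. Probe positions, and whether low counts were removed before deposit, are not stated in any label or header. Of all values 28.5% were 0. Of the values above 0, 1.01% were 1 to 5 and 2.93% were 21 to 25, so the lowest counts were the rarer ones. Whether a 0 stands for no reads or for a low count removed earlier was not tested. Of 3045 probes (289 symbols have 2), 2541 passed filterByExpr (minimum count 10, minimum total 15). edgeR 4.0.16 in R 4.3.3 was run with robust quasi-likelihood dispersions and 1 mean for each group, all 40 libraries together (34 residual degrees of freedom) after TMM scaling, with Benjamini-Hochberg adjustment over all tested probes. Standard errors are the fold change over the root of F. log2 CPM used a prior count of 2. Alternatives were other scalings, no filter, DESeq2 1.42.0, limma-voom (limma 3.58.1), fits with fewer libraries and acinar share as a covariate. The fit was also run on counts simulated from the mean levels and fitted dispersions, with fold changes set at random in the Folpet group. Its outcome is not reported here. The simulation set no difference in acinar share and no removal of low counts, so it does not test the calls for these.

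Named genes were the 12 largest called rises and falls with all Folpet libraries on 1 side of the control mean, up to 5 called probes per direction and list by p, each list's defining genes, and the 10 called probes with the smallest p per direction of the dose step. For genes with 2 probes, values are from the more abundant probe unless stated. The text favours those whose calls held, a narrowing made after values were seen. The members and lists were chosen with earlier results of these data known. Levels are compared between libraries, not between genes. Replicate numbers follow the order of deposit and pair nothing. A few called genes outside this rule are named from list counts, chosen after their values were seen. Some genes that the rule names are not reported here.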

Additional observations from a re-analysis of the deposited data

Results flagged for a closer look

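Of 100 groups of libraries examined for a single library far from the rest, 7 held one, and chance flags about 1 in 20 groups. Folpet 16000 ppm replicate 2 was low for Gsta1 (log2 CPM 14.60) and Gsta2 (11.50), both still above all controls. Control replicate 5 was low for Abcc3 (5.26), C1qb (7.03) and Bnip3 (-1.26, a count of 0). Control replicate 2 was low for Capg (-1.26, a count of 0) and high for Itgae (8.91).

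The other results marked for a closer look are differences between the doses, tested as the log2 fold change of 16000 over 6000 ppm in the edgeR fit. Higher at 16000 ppm were Hspa1b (4.20), Osgin1 (1.46), Sqle (1.32), Tcp1 (0.81), Aldoa (0.76), Sod1 (0.71), Nup62 (0.68), Jmjd6 (0.64), Ptger4 (0.62) and Aldh3a2 (0.59). Lower were Fkbp5 (-1.84), an uncharacterized RIKEN transcript (-1.60), Ceacam1 (-1.32), Pdlim1 (-1.18), Erbb3 (-0.95), Klhl24 (-0.92), Rapgef2 (-0.88), Prr15l (-0.87), Btg2 (-0.87) and Slc27a2 (-0.70).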

How the results depend on the processing

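No paired analysis was possible because the labels carry no replicate numbers. Of 145 called named genes 44 kept their call in all 22 alternatives, 79 in all but library totals alone, and 91 without each library in turn. Against control, library totals alone gave 57 calls and the fit of only the compared groups 205, in place of 320; leaving out 1 library gave 262 (without control replicate 5, 217 of the 320 kept) to 318. An alternative chosen after seeing the data, without control replicates 4 and 5, gave 268 calls, 198 of them among the 320. For the dose step, library totals gave 9 calls, DESeq2 72, only the compared groups 113 and the fit without libraries over 50% acinar 70, in place of 44; leaving out 1 library gave 25 to 47, with 25, 29 and 29 without 6000 ppm replicates 2, 3 and 5 and 27, 27 and 28 without 16000 ppm replicates 1, 3 and 5. The acinar difference ran from -30.15 (without control replicate 3) to -15.76 percentage points (without control replicate 5), and total counts differed by 883685 to 1908430. Among called genes named in the text no direction reversed in the alternatives run. Medians of lists did: that of acinar markers went from -1.19 to 1.21 with acinar share as a covariate and that of immediate early genes from 0.18 to -0.10 without libraries over 50% acinar. With limma-voom the median of all probes was 0.09 and those of p53, DNA repair and cell cycle lists were 0.21, 0.28 and 0.26. The causes were not tested. With 5 controls of 2121824 to 6220801 counts, genes near 0 are the least certain.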

Other observations

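Called probes outside the gene lists were examined too, and the 10 with the smallest p were chosen after their values were seen. Pgrmc1, a heme-binding partner of P450 enzymes, was at 630.0, 453, 509, 599 and 383 CPM in control and at 1241 to 2176 CPM (median 1742) after 16000 ppm of Folpet, 1.71 ± 0.21 log2 (adjusted p = 1.25e-07, edgeR), with no overlap. Tsku rose by 1.48 ± 0.21 (its second probe was not called, 1.06 log2), Vat1 by 1.14 ± 0.16, Ptger4, a prostaglandin E2 receptor, by 1.05 ± 0.17, Atp6v1d, a subunit of the proton pump of lysosomes, by 1.02 ± 0.18, Hook2 by 1.0 ± 0.14 and Bpnt1 by 0.97 ± 0.15. Trp53inp2 and Calcoco1, both linked to autophagy, fell by 1.31 ± 0.21 and 1.15 ± 0.20 log2, and C920025E04RIK by 1.07 ± 0.17.

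In the lysosome and autophagy list 4 of 19 probes were called higher and 1 lower. Becn1, which starts autophagy, kept its call without each library in turn (0.75 log2), with a second probe not called (0.28). Lamp1 lost its call without control replicate 5 (0.34), Atg3 without control replicate 1 (0.71) and Lipa without control replicates 4 and 5 together (0.84). Gaa, the probe called lower, lost its call without any 1 of 8 libraries (-0.91 to -0.76). Of 26 apoptosis probes 2 were called higher, among them Bad (0.59 log2), which lost its call in 11 of 22 alternatives. Of 13 transporter probes 1 was called higher, Slc11a2, and 1 lower, Aqp1, and these calls were lost in 14 and 15 of 22 alternatives. The 1 called probe of 4 for pancreatic ducts and islets was Krt19, which enterocytes express as well.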
